A study of Mus musculus with 12 samples.

Results

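Cadherins and catenins are the proteins of adherens junctions, and 8 of their genes were followed in cultured mouse cardiac fibroblasts with and without Smad7. The genes were the cadherins Cdh2, Cdh11, Cdh13 and Pcdh17 and the catenins Ctnna1, Ctnnb1, Ctnnd1 and Jup. They were taken by gene name from the 35275 genes of the deposited count table, and all 8 were among the 15150 genes that passed the filter on low counts. They were picked with the Smad7-KO differences known, namely that Pcdh17 was nearly lost and Jup lower, so their Smad7-KO differences are given as a description without a test.

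The fibroblasts came from hearts of 12-week-old C57BL/6 mice that carry a floxed Smad7 gene, and they were used at passage 2. RNA-Seq was performed in 4 conditions with 3 libraries each. Control cells, unstimulated or stimulated with TGF-β1, were infected with a GFP adenovirus. Smad7-KO cells, unstimulated or stimulated with TGF-β1, were infected with an adenovirus that expresses Cre. Both viruses were given at 100 MOI for 48 hours, so control cells too carried the floxed allele and were given an adenovirus, and Cre was delivered in the dish and not in the animal. TGF-β1 was given at 10 ng/ml, and the labels disagree on the time, with 2 hours given in one place and 4 hours elsewhere.

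Cadherins are adhesion receptors of the cell surface that bind the same cadherin on a neighbouring cell and need calcium to do so. Inside the cell, the tail of a classical cadherin holds p120-catenin near the membrane and β-catenin or plakoglobin further along, and α-catenin links that complex to actin. β-Catenin is also the transcriptional arm of Wnt signaling when it escapes destruction. In the heart, N-cadherin joins cardiomyocytes at intercalated discs, and N-cadherin and cadherin-11 are the main cadherins of fibroblasts and myofibroblasts.

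Promoters are shown because TGF-β1 acts through Smad proteins that recognize the letters CAGAC. They are those of Ctnnb1, called with TGF-β1 in both genotypes, and of Jup, called with it in Smad7-KO cells alone. Pcdh17 is added as the gene furthest below control in Smad7-KO cells. RefSeq promoter sequences of GRCm38.p6 covered 4 of the 8 genes, namely Ctnnb1, Jup, Pcdh17 and Ctnnd1. None is given for Cdh2, Cdh11, Cdh13 and Ctnna1. Ctnnb1 and Ctnnd1 each have 2 RefSeq starts, and the first of Ctnnb1 is shown. Each sequence holds the 250 bases before a RefSeq start, 5′ to 3′ on the strand of the gene. Capitals mark CAGAC or its other strand, GTCTG.
Pcdh17, chr14:84443313-84443562, plus strand: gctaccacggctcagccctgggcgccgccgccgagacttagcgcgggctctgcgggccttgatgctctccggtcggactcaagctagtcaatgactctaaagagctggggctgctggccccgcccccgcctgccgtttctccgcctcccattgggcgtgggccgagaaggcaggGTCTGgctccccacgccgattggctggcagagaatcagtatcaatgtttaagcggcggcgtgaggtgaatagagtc
Ctnnb1, chr9:120933150-120933399, plus strand: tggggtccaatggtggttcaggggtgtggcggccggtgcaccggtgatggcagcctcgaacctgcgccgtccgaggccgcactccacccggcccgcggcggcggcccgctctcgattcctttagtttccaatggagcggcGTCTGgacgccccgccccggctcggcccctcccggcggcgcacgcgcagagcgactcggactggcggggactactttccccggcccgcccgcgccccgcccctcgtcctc
Jup, chr11:100397791-100398040, minus strand: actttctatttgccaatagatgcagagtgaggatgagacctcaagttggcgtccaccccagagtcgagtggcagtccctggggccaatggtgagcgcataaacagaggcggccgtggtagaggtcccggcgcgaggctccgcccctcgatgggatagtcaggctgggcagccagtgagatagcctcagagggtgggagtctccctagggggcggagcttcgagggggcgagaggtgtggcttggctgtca
The Pcdh17 sequence held 1 match, 76 bases before the start, and the Ctnnb1 sequence held 1, at 110 bases. The sequence before the other Ctnnb1 start (120933578) held 0, and those before the Ctnnd1 starts held 2 (at 84658977) and 0 (at 84650740). The Jup sequence held none of these letters. CAGAC stood on either strand in 42.2% of 32851 promoters of the same length, so a match is common and says nothing of binding. None of the sequences of the 4 genes held TGANTCA, the AP-1 site (in 6.75% of promoters), CTTTGAT, a TCF site (3.21%), or CACCTG, an E-box read by Snail (17.2%), on either strand. In GENCODE M21 the Pcdh17 and Jup sequences lay in no annotated gene, and the Ctnnb1 sequence lay in the Ctnnb1 gene but in no exon, while that of the other Ctnnb1 start overlapped a Ctnnb1 exon. The sequence before the Ctnnd1 start at 84658977 overlapped an exon of Btbd18 on the plus strand, and that before 84650740 a Ctnnd1 exon. The first bases after the Jup start and after 84658977 were not found in a GENCODE M21 transcript of the gene.

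On GRCm38, Cdh2 lies on the minus strand of chromosome 18 (16588877 to 16809246) and Ctnna1 on the plus strand of the same chromosome (35118888 to 35254773). Cdh11 is on the minus strand of chromosome 8 (102632995 to 102785111), and Cdh13 on its plus strand (118283733 to 119324921), where it spans 1041189 bases. Pcdh17 lies on chromosome 14 (84443563 to 84537060, plus strand), and Ctnnb1 on chromosome 9 (120929216 to 120960507, plus strand). Ctnnd1 lies on chromosome 2 (84600071 to 84650765, minus strand), and Jup on chromosome 11 (100368958 to 100397763, minus strand). The count table lists no gene that overlaps Cdh11, Cdh13, Pcdh17 or Jup. Ctnnd1 overlaps a second entry on its strand that holds 0 counts in every library, and the overlapping genes of Cdh2, Ctnna1 and Ctnnb1 lie on the opposite strand and reached at most 112 counts in any library.

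Libraries held 19056916 to 25371321 counts (median 22660845). Smad7 was at 71.4 to 77.2 CPM (read counts relative to the library total after TMM scaling) in unstimulated control, 142 to 150 in TGF-β1 control, 28.4 to 31.1 in unstimulated Smad7-KO and 70.0 to 80.8 in TGF-β1 Smad7-KO libraries. It was thus lower in Smad7-KO than in control libraries of the same stimulation but still present, and counts per gene do not separate the deleted part of Smad7 from the rest. All 10 fibroblast markers were detected in each condition, with summed levels of 7425 to 11496 CPM over the 12 libraries. The 11 macrophage markers summed to more, at 16720 to 26264 CPM over the 12 libraries, so the cultures were not fibroblasts alone by these markers. The unstimulated control libraries were the least alike: libraries 2 and 3 correlated at 0.935 in log2 CPM, against at least 0.984 between libraries of each other condition, and library 2 had the smallest total and the lowest TMM factor (0.919). Values that rest on either of them are given with and without it.

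The catenin genes Ctnnb1 and Ctnna1 were the most abundant of the 8 in every condition. Per length, as FPKM from TMM-scaled libraries, Ctnnb1 led in unstimulated control cells with 129 ± 19.5 (SD, n = 3), above 96.5% of the genes tested. Ctnna1 followed with 93.4 ± 8.50 FPKM, and Jup with 32.1 ± 1.55. Cdh2 was the leading cadherin at 27.4 ± 5.39 FPKM, and its libraries overlapped those of Jup. Cdh11 was at 12.3 ± 2.40, Ctnnd1 at 9.08 ± 4.06 and Cdh13 at 5.45 ± 0.902 FPKM, where neighbouring genes overlapped between libraries. Pcdh17 was far below them at 0.316 ± 0.169 FPKM, above 9.23% of the genes tested. The order was the same in all 4 conditions except that Cdh2 (23.7 ± 1.27 FPKM) stood above Jup (21.0 ± 1.70) in unstimulated Smad7-KO cells, where their libraries overlapped.

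**Figure D1:**
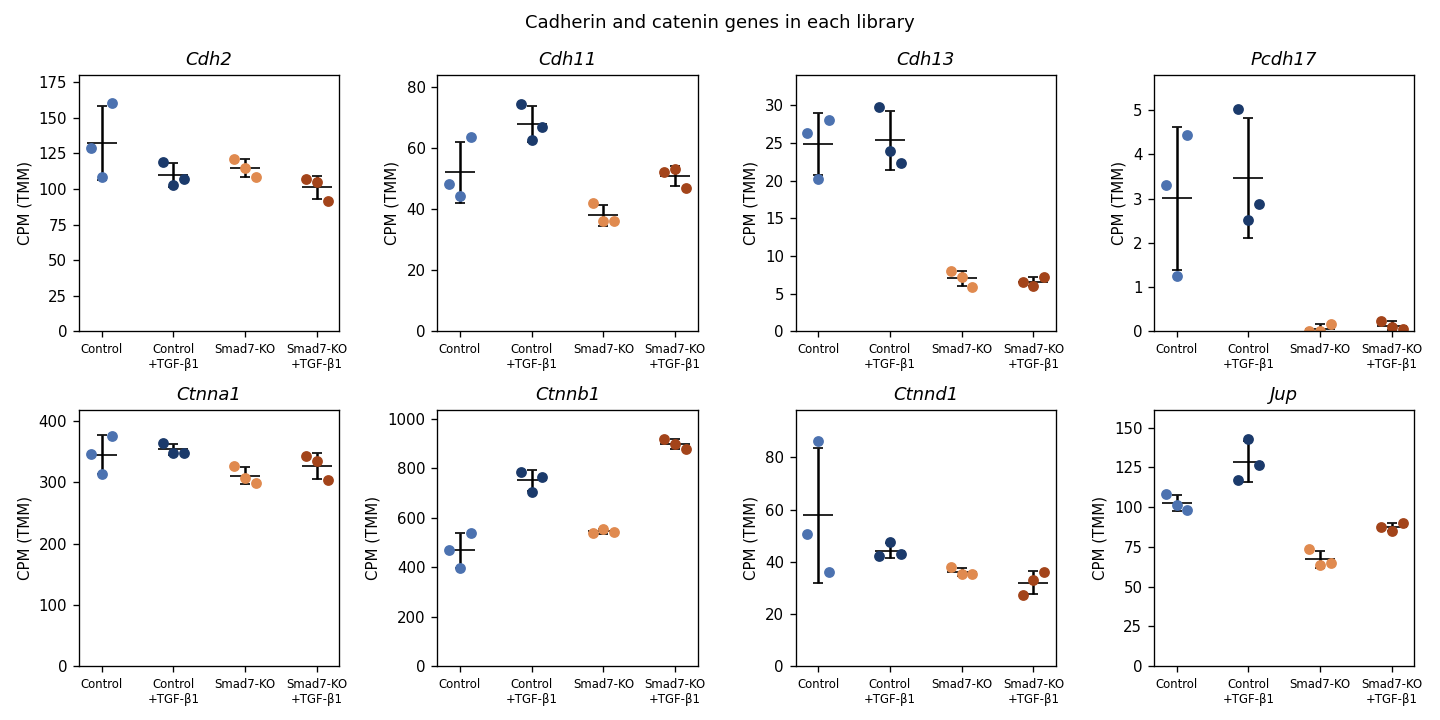
Expression of the 8 genes in CPM (TMM-scaled, vertical axis from 0 in each panel) for every library of the 4 conditions on the horizontal axis, with the mean (long bar) and SD. Pcdh17 sits between 0 and 0.239 CPM in the 6 Smad7-KO libraries and between 1.26 and 5.01 in the 6 control libraries, and Ctnnb1 is higher with TGF-β1 in both genotypes.

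To examine how the junction genes responded to TGF-β1, stimulated cells were compared with unstimulated cells of the same genotype by the quasi-likelihood test of edgeR, where p values were adjusted over the 15150 genes by Benjamini-Hochberg. Ctnnb1 rose in both genotypes and Jup rose in Smad7-KO cells, while the other genes did not pass the threshold of 0.05. In control cells 1 of the 8 genes was called, where 8.37% of the genes tested were. In Smad7-KO cells 2 of 8 were called, where 10.2% of the genes tested were. Their median log2 fold change was 0.12 in control and 0.23 in Smad7-KO cells, against -0.03 and -0.01 over all genes tested. The stimulated and unstimulated libraries did not overlap for 2 of the 8 genes in control cells, where 19.8% of the genes tested had no overlap, and for 4 in Smad7-KO cells, where 39% had none.

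Ctnnb1, which encodes β-catenin, was at 472, 396 and 537 CPM in unstimulated control libraries and at 785, 705 and 764 CPM with TGF-β1. In Smad7-KO cells it was at 538, 555 and 543 CPM without and at 917, 898 and 878 CPM with TGF-β1. All stimulated libraries were thus above all unstimulated ones within each genotype. The log2 fold change was 0.68 ± 0.11 (SE, edgeR adjusted p = 0.00263) in control cells, a 1.60-fold increase. It was 0.72 ± 0.11 (SE, edgeR adjusted p = 0.00149) in Smad7-KO cells, a 1.65-fold increase. Fitted to the 6 control libraries alone, the control difference was of the same size (0.68) but not called (edgeR adjusted p = 0.105). Across the 20 other alternatives it was called, and the Smad7-KO difference was called in all 21.

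Jup encodes plakoglobin, also called γ-catenin, which takes the place of β-catenin at cadherin tails and also sits in desmosomes. It was at 108, 102 and 98.4 CPM in unstimulated control libraries and at 117, 143 and 126 CPM with TGF-β1. In Smad7-KO cells it was at 73.6, 63.7 and 64.8 CPM without and at 87.8, 84.9 and 90.2 CPM with TGF-β1. The stimulated libraries were again all above the unstimulated ones in each genotype. In control cells the log2 fold change of 0.32 ± 0.10 (SE) was not called (edgeR adjusted p = 0.0782). In Smad7-KO cells it was 0.38 ± 0.10 (SE, edgeR adjusted p = 0.0348). That call was held in 9 of 21 alternatives, and it was lost on leaving out unstimulated control library 1, TGF-β1 control library 3, unstimulated Smad7-KO library 2 or 3, or any TGF-β1 Smad7-KO library (adjusted p = 0.0539 to 0.155).

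Cdh11 encodes cadherin-11, a type II cadherin of mesenchymal cells. It was at 48.3, 44.2 and 63.4 CPM in unstimulated control and at 74.3, 62.4 and 66.8 CPM in TGF-β1 control libraries. In Smad7-KO cells it was at 41.8, 36.1 and 36.0 CPM without and at 52.2, 53.3 and 47.0 CPM with TGF-β1. The groups overlapped in control cells, through unstimulated library 3, and did not overlap in Smad7-KO cells. The log2 fold changes of 0.38 ± 0.14 and 0.42 ± 0.14 (SE) were not called (edgeR adjusted p = 0.13 and 0.0844). Without unstimulated control library 3 the control value was 0.55 and called (edgeR adjusted p = 0.00721).

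Cdh2 encodes N-cadherin. It was at 129, 109 and 160 CPM in unstimulated control and at 119, 103 and 107 CPM in TGF-β1 control libraries. In Smad7-KO cells it was at 121, 115 and 109 CPM without and at 107, 105 and 91.7 CPM with TGF-β1. The libraries overlapped in control cells and were all lower with TGF-β1 in Smad7-KO cells. The log2 fold changes were -0.27 ± 0.14 and -0.18 ± 0.14 (SE), neither of them called (edgeR adjusted p = 0.294 and 0.569). With 1 library left out, the control value ran from -0.40 to -0.11 and was called in 1 of 12 fits. Where each library's trend on gene length was removed, the control value of Cdh2 was -0.38 and called (edgeR adjusted p = 0.00165), and that of Cdh11 was 0.29 and called (edgeR adjusted p = 0.0331).

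As shares of the summed FPKM of the 4 cadherins, Cdh11 made up 27.1% ± 1.04 (SD, n = 3) in unstimulated and 36.0% ± 0.603 in TGF-β1 control cells. In Smad7-KO cells its share was 26.3% ± 0.886 without and 35.1% ± 0.513 with TGF-β1. The share of Cdh2 was 60.2% ± 0.318 and 50.8% ± 0.703 in control cells, and 69.2% ± 0.953 and 60.7% ± 0.838 in Smad7-KO cells, in the same order. For both genes the stimulated and unstimulated libraries did not overlap in either genotype. These shares do not depend on the scaling between libraries, and they were chosen after the values were seen. In 10 exact permutation tests of shares with and without TGF-β1 (two-sided), p was 0.1 for Cdh2 and for Cdh11 in each genotype, which is the smallest value that 3 against 3 libraries allow.

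**Figure D2:**
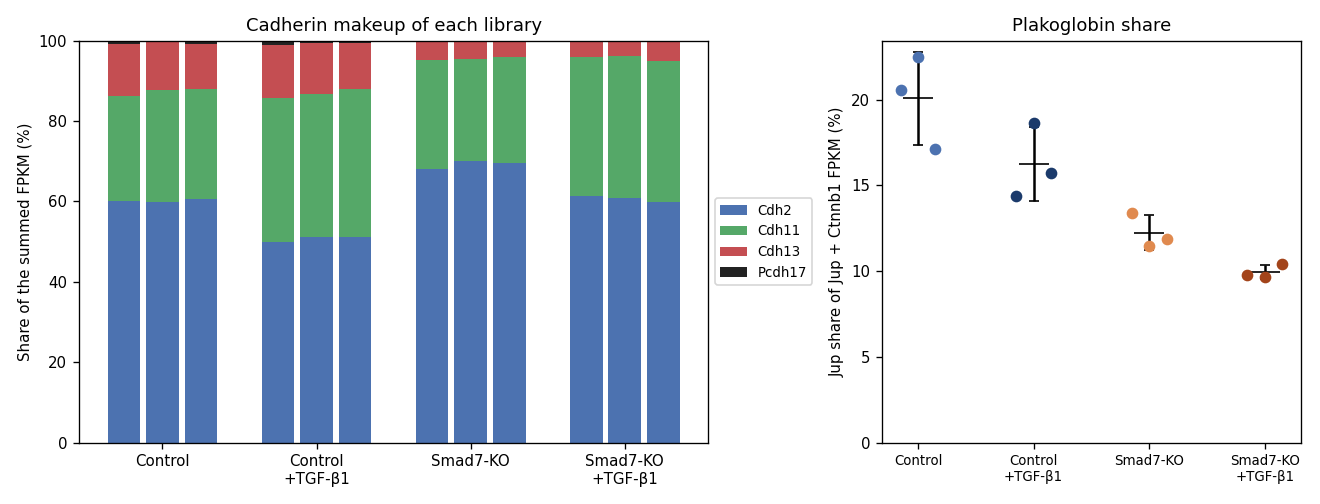
Left, each bar is 1 library and shows the shares of Cdh2, Cdh11, Cdh13 and Pcdh17 in their summed FPKM (vertical axis, 0 to 100%), with Cdh11 at 25.3 to 28.0% in unstimulated and 34.5 to 36.7% in stimulated libraries. Right, the share of Jup in Jup plus Ctnnb1 FPKM (%) per library with the mean and SD, from 22.5% at the highest in unstimulated control to 9.65% at the lowest in TGF-β1 Smad7-KO cells.

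Cdh13 encodes T-cadherin, which is anchored by a lipid, has no tail to hold catenins and binds adiponectin. With TGF-β1 its log2 fold change was 0.03 ± 0.16 in control and -0.09 ± 0.17 (SE) in Smad7-KO cells, and neither was called (edgeR adjusted p = 0.948 and 0.894). Ctnna1, which encodes αE-catenin, stayed between 299 and 376 CPM over the 12 libraries. Its log2 fold changes with TGF-β1 were 0.03 ± 0.10 and 0.07 ± 0.10 (SE), not called (edgeR adjusted p = 0.88 and 0.827). Ctnnd1, which encodes p120-catenin, the catenin that keeps cadherins at the surface, had values of -0.38 ± 0.24 and -0.18 ± 0.25 (SE), not called (edgeR adjusted p = 0.436 and 0.829). The Ctnnd1 value in control cells rested on unstimulated control library 2 and was 0.03 without it. Pcdh17, a protocadherin, had values of 0.20 ± 0.51 and 1.06 ± 1.24 (SE), not called (edgeR adjusted p = 0.868 and 0.778), the second from 4 against 9 counts in all.

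The interaction asked whether the TGF-β1 difference itself differed between Smad7-KO and control cells. Of the 8 genes, 0 were called by edgeR, by DESeq2 and by limma on FPKM, and 0 had an unadjusted edgeR p under 0.05, where 2.59% of the genes tested had one. Over all genes edgeR called 3 (0.0198%). The estimates, Smad7-KO minus control, were 0.04 ± 0.16 (SE) for Ctnnb1, 0.06 ± 0.14 for Jup, 0.04 ± 0.20 for Cdh11 and 0.09 ± 0.19 for Cdh2 on the log2 scale. The smallest adjusted p of the 8 genes was 0.98. A gene called in 1 genotype, as Jup was, is therefore not shown to respond differently in the other.

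**Figure D3:**
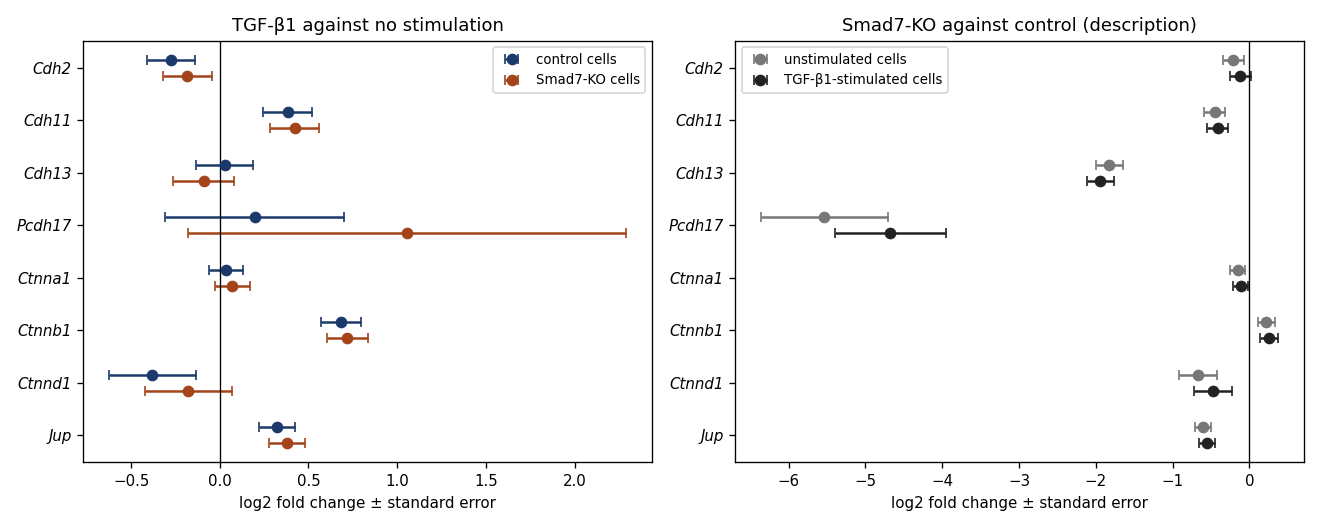
Log2 fold changes of the 8 genes with their standard errors on the horizontal axis, for TGF-β1 in control and Smad7-KO cells (left) and for Smad7-KO against control in unstimulated and stimulated cells (right). Ctnnb1 has the largest called TGF-β1 difference in both genotypes (0.68 and 0.72), and Pcdh17 and Cdh13 lie furthest below 0 on the right.

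Smad7-KO cells were then set beside control cells with the same stimulation. Pcdh17 and Cdh13 were lowest relative to control, Jup and Cdh11 were moderately lower, and Ctnnb1 was slightly higher. The groups did not overlap for 5 genes in unstimulated cells (41.3% of the genes tested) and for 7 in stimulated cells (44.9%). Because the genes were chosen on these comparisons, nothing is read from these counts.

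Pcdh17 had 74, 22 and 105 counts in unstimulated control libraries and 0, 0 and 4 in unstimulated Smad7-KO libraries. With TGF-β1 it had 124, 62 and 59 counts in control and 6, 2 and 1 in Smad7-KO libraries. Every control library was above every Smad7-KO library. With libraries pooled and scaled, the level in control was 52.6 times that in Smad7-KO cells without stimulation (exact 95% interval 20.2 to 195) and 26.6 times with TGF-β1 (13.8 to 58.9). These intervals cover counting error only and leave out the spread between libraries. Because Pcdh17 was picked on this difference, they are a description and no test of it. Smad7-KO cells thus kept 1.90% of the control level without and 3.76% with TGF-β1. The fitted log2 fold changes of -5.54 and -4.68 depend on the prior count of the fit at such levels.

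Cdh13 was at 26.4, 20.2 and 28.1 CPM in unstimulated control and at 7.98, 7.21 and 5.94 CPM in unstimulated Smad7-KO libraries. With TGF-β1 it was at 29.8, 23.9 and 22.4 CPM in control and at 6.58, 6.02 and 7.22 CPM in Smad7-KO libraries. The groups were far apart, and Smad7-KO cells had 28.3% and 26.1% of the control mean. The log2 fold changes were -1.82 ± 0.17 and -1.94 ± 0.17 (SE). The share of Cdh13 in the summed FPKM of the 4 cadherins was 12.0% and 12.4% in control cells and 4.49% and 4.24% in Smad7-KO cells.

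Jup had no overlap between genotypes in either state, by the values given above. Without stimulation the mean of control cells was 103 ± 4.98 CPM (SD, n = 3) and that of Smad7-KO cells 67.3 ± 5.44, and they were 129 ± 13.0 and 87.6 ± 2.65 CPM with TGF-β1. The log2 fold changes were -0.61 ± 0.10 and -0.55 ± 0.10 (SE), which left 65.5% and 68.1% of the control level. In these cells Ctnnb1 went the other way in the estimates, at 0.22 ± 0.11 and 0.26 ± 0.11 (SE) on the log2 scale, with every Smad7-KO library above every control library. Without stimulation that separation was narrow, with Smad7-KO library 1 at 537.9 and control library 3 at 537.3 CPM. In the deposited FPKM those groups overlapped, with control library 3 at 154.5 and the Smad7-KO libraries at 150.0 to 154.4. The share of Jup in the summed FPKM of Jup and Ctnnb1 was 20.1% ± 2.71 (SD, n = 3) in unstimulated control and 16.3% ± 2.15 in TGF-β1 control cells. It was 12.2% ± 1.01 in unstimulated and 9.94% ± 0.403 in TGF-β1 Smad7-KO cells. With against without TGF-β1 this share had an exact permutation p of 0.2 in control and 0.1 in Smad7-KO cells.

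Cdh11 was lower in Smad7-KO cells, with no overlap, by log2 fold changes of -0.46 ± 0.14 and -0.42 ± 0.14 (SE). With 1 library left out, the value in unstimulated cells ran from -0.56 to -0.28. Ctnnd1 was at 50.7, 86.4 and 36.2 CPM in unstimulated control and at 38.0, 35.5 and 35.2 CPM in unstimulated Smad7-KO libraries, which overlapped. Its log2 fold change there was -0.67 ± 0.25 (SE), and -0.26 without unstimulated control library 2. With TGF-β1, Ctnnd1 was at 42.3, 47.8 and 42.9 CPM in control and at 27.1, 32.9 and 36.0 CPM in Smad7-KO libraries, a log2 fold change of -0.47 ± 0.25 (SE) without overlap. Cdh2 was nearer to control, at -0.21 ± 0.14 and -0.12 ± 0.14 (SE), with overlap in both states. Its value in unstimulated cells ran from -0.33 to -0.045 with 1 library left out. Ctnna1 was at -0.15 ± 0.10 and -0.11 ± 0.10 (SE).

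Gene length moved with the Smad7-KO comparisons and with TGF-β1 in control cells. Over all genes tested, the median log2 fold change of Smad7-KO against control in unstimulated cells was -0.39 for the 5050 shortest genes and 0.29 for the 5050 longest. In stimulated cells the medians were -0.20 and 0.17. With TGF-β1 they were -0.21 and 0.075 in control cells, and 0.0059 and -0.034 in Smad7-KO cells. Cdh2, Cdh11, Cdh13, Pcdh17 and Ctnnd1 are among the longest and Ctnna1, Ctnnb1 and Jup lie between the 2 sets. With each library's length trend removed, the log2 fold change of Smad7-KO against control in unstimulated cells was -0.64 for Jup, -2.02 for Cdh13 and -5.92 for Pcdh17. It was -0.43 for Cdh2, -0.25 for Ctnna1 and -1.17 for Ctnnd1.

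Endothelial markers also moved with Smad7. Of 13 tested of 15 endothelial markers, 10 were called lower in Smad7-KO cells and 1, Vwf, higher, in both states (edgeR). Their summed level was 632 to 670 CPM in unstimulated control and 664 to 705 in TGF-β1 control libraries, and 214 to 232 and 246 to 252 CPM in the matching Smad7-KO libraries. Emcn, an endothelial surface sialomucin, was at 3.08% of its control mean in unstimulated Smad7-KO cells, Pecam1 at 4.96%, Cdh5 at 8.94% and Eng at 51.0%. Kdr and Vwf were not lower there, at 126% and 205%. Tek was at 11.1 CPM in unstimulated control and at 9.46 CPM in unstimulated Smad7-KO cells. With TGF-β1, Kdr was at 79.2% and Tek at 65.3% of the control mean. Eng (329 CPM) and Emcn (152 CPM) were the largest parts of the summed level in unstimulated control cells. Cldn5 did not pass the count filter and was near 0 in every condition. It was at 0.106 CPM in control and 0.033 in Smad7-KO cells without stimulation, and at 0.108 and 0 with TGF-β1. In bulk RNA, fewer cells of a type and less RNA per cell cannot be told apart. The part of endothelial cells in the levels of Pcdh17, Cdh13 and Jup was not tested.

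**Figure D4:**
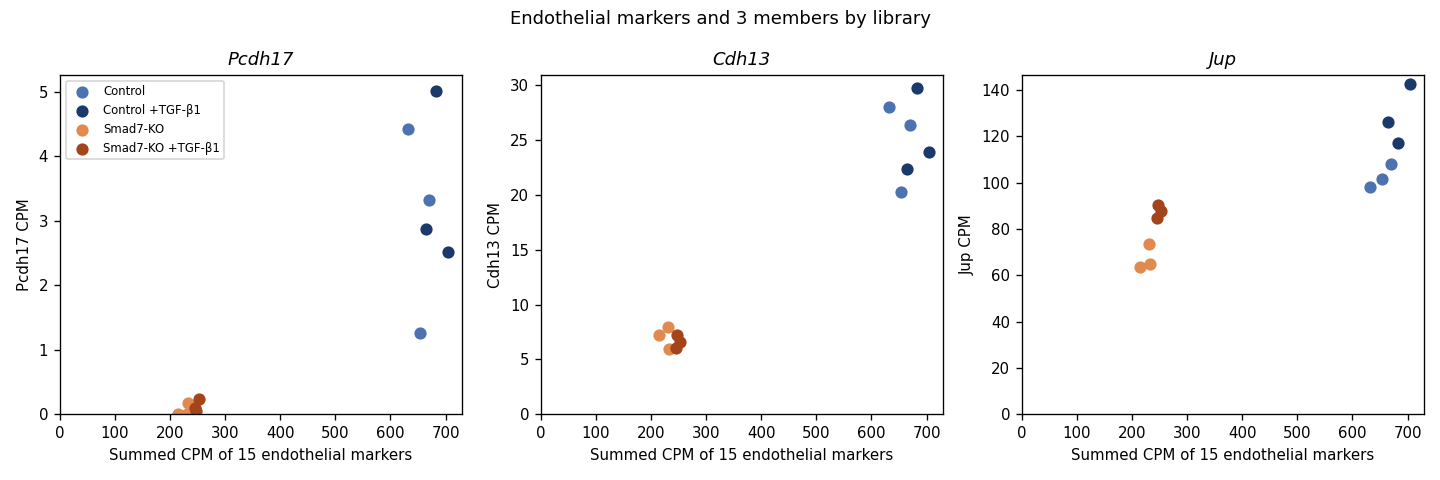
Pcdh17, Cdh13 and Jup (vertical axes, CPM) against the summed CPM of 15 endothelial markers (horizontal axis), 1 point per library, coloured by condition. The Smad7-KO libraries sit at 214 to 252 CPM of markers and the control libraries at 632 to 705, with each of the 3 genes lower in the first set within each stimulation state.

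Among other cell types, 6 of 11 macrophage markers were called higher in Smad7-KO cells in both states (edgeR), with summed levels of 16797 to 26262 CPM in unstimulated control, 16720 to 19355 in TGF-β1 control, 23912 to 26264 in unstimulated Smad7-KO and 23210 to 26096 in TGF-β1 Smad7-KO libraries. Smooth muscle and pericyte markers summed to 209 to 334 and 453 to 523 CPM in control cells without and with TGF-β1, and to 227 to 234 and 398 to 421 CPM in Smad7-KO cells. In control cells the largest rises within this sum were those of Pdgfrb (145 to 274 CPM) and Mcam (38.5 to 110 CPM). There Myh11 was at 3.75 and 4.28 CPM, Rgs5 at 3.77 and 4.66, and Notch3 at 29.8 and 25.7, without and with TGF-β1. Epicardial and mesothelial markers summed to 463 to 498 and 416 to 419 CPM in control and to 364 to 421 and 325 to 341 CPM in Smad7-KO cells. Cardiomyocyte markers were at most 78.4 CPM in sum, in unstimulated control library 2, and Nppa was at 0 in every condition but TGF-β1 control. The part of these markers in the differences of the 8 genes was not tested.

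The genes most like each of the 8 were found by Pearson's r of log2 CPM over the 12 libraries, among about 12202 others whose average log2 CPM was 1 or more. Such an r mostly follows the 4 condition means that the libraries share, and it is a description. For Pcdh17 they were Pam (r = 0.985), Cdh5 (0.976) and Adcy4 (0.971). For Cdh13 they were Smoc1 (0.990), Npr1 (0.988) and Rian (0.987), and for Cdh11 they were Msrb3 (0.985), Zbtb7c (0.982) and Lox (0.981). For Cdh2 the closest was Plekhh2 (0.948) and for Ctnna1 it was Ptprk (0.967). For Ctnnb1 they were Slc25a37 (0.996), Hk2 (0.995) and Sipa1l2 (0.995), for Ctnnd1 the closest was Mrpl13 (0.982), and for Jup they were Fgfrl1 (0.986), Pabpc4 (0.983) and Cyr61 (0.978). Between the 8 genes the highest r was 0.945, for Pcdh17 and Cdh13, but within conditions that pair had an r of 0.195. Other pairs moved closely within conditions, where r ran from -0.959 for Ctnnb1 and Ctnnd1 to 0.957 for Cdh2 and Ctnna1. The cause of these shared moves between replicates was not tested.

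The other genes of the junctions and of the β-catenin pathway were taken as 10 lists of 116 genes, of which 88 were tested. With TGF-β1, 11 rose and 4 fell in control cells (17%, against 8.37% of all genes), and 11 rose and 7 fell in Smad7-KO cells (20.5%, against 10.2%). In Smad7-KO against control, 11 rose and 21 fell in unstimulated cells (36.4%, against 25.8%), and 2 rose and 18 fell in stimulated cells (22.7%, against 13%). The lists were chosen with earlier results of these data known, so nothing is read from these shares. All values below are edgeR log2 fold changes with adjusted p, and a gene called in 1 genotype or state is not thereby shown to differ from the other. They were not corrected for gene length, which moved with the comparisons as given above. None is given with single libraries left out, and the unstimulated control libraries were the least alike.

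Among 6 tested of 19 other classical and type II cadherins, 3 were lower in Smad7-KO cells in both states. Cdh5, or VE-cadherin, fell from 34.3 ± 10.0 to 3.06 ± 0.462 CPM (SD, n = 3) in unstimulated cells. Its log2 fold changes were -3.48 (adjusted p = 9.08e-06) and -3.41 (adjusted p = 1.20e-05), and Cdh5 is also one of the endothelial markers above. Cdh3, or P-cadherin, was at -0.92 and -1.32 (adjusted p = 0.00556 and 0.000939). With TGF-β1, 1 of the 6 fell in Smad7-KO cells, and in control cells 0 were called by edgeR, DESeq2 or limma and 0 had an unadjusted p under 0.05.

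Of 6 tested protocadherins outside the gene clusters, 2 rose with TGF-β1 in control cells. Pcdh7 rose by 1.08 (adjusted p = 0.0439), from 43.3 ± 22.6 to 91.7 ± 16.9 CPM (SD), and Pcdh19 by 1.05 (adjusted p = 0.00493), from 7.41 ± 1.90 to 15.4 ± 1.07 CPM. In Smad7-KO cells edgeR and limma called 0 of the 6 with TGF-β1 and DESeq2 called 1, and 3 had an unadjusted edgeR p under 0.05. Pcdh19 was also higher in unstimulated Smad7-KO cells by 0.69 (adjusted p = 0.0274), while in stimulated cells edgeR, DESeq2 and limma called 0 of the 6 and 1 had an unadjusted edgeR p under 0.05. Of 9 tested Fat, Dachsous, flamingo and calsyntenin cadherins, Fat3, a giant cadherin of planar polarity, was higher in Smad7-KO cells by 1.71 and 1.59 (adjusted p = 0.00811 and 0.0146). Without stimulation Fat3 was at 32.4 ± 18.1 CPM in control and 106 ± 9.10 in Smad7-KO cells (SD, n = 3). The part of gene length in this difference was not tested. With TGF-β1, edgeR, DESeq2 and limma called 0 of these 9 in either genotype, and 0 had an unadjusted edgeR p under 0.05.

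The other catenins and plakophilins were lower in Smad7-KO cells for 6 of 9 tested in unstimulated and 4 of 9 in stimulated cells, and 0 were higher. Pkp2, a desmosomal plakophilin of the heart, had means of 8.30 ± 0.281 CPM in control and 2.38 ± 0.299 in Smad7-KO cells without stimulation (SD, n = 3). Its log2 fold changes were -1.80 and -1.68 (adjusted p = 0.000681 and 0.00112). Pkp1 was lower by -0.97 and -1.43 (adjusted p = 0.0216 and 0.00241), and it rose with TGF-β1 by 1.48 in control and 1.02 in Smad7-KO cells (adjusted p = 0.00158 and 0.0239). Ctnnal1, an α-catenin relative, was lower in Smad7-KO cells (-0.90 and -0.81, adjusted p = 0.00148 and 0.00336) and fell with TGF-β1 (-0.59 and -0.50, adjusted p = 0.0174 and 0.0393). Pkp4 fell with TGF-β1 in Smad7-KO cells by 0.58 on the log2 scale (adjusted p = 0.00324).

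Of 6 tested genes in the desmosome list, 3 were lower in unstimulated and 1 in stimulated Smad7-KO cells. That list also holds Des, the gene of the filament protein desmin. Perp, a desmosomal membrane protein and p53 target, was at -2.17 and -1.81 (adjusted p = 0.00069 and 0.00231). Dsp, or desmoplakin, was lower in unstimulated Smad7-KO cells (-0.99, adjusted p = 0.0272) and rose with TGF-β1 in Smad7-KO cells by 1.44 (adjusted p = 0.00523), where Ppl, or periplakin, fell (-1.09, adjusted p = 0.0184). In control cells with TGF-β1 edgeR and limma called 0 of the 6 and DESeq2 called 1, and 2 had an unadjusted edgeR p under 0.05.

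All 15 nectins and actin linkers of adherens junctions were tested, and with TGF-β1 3 rose and 1 fell in each genotype. Ajuba, a LIM protein that binds α-catenin, rose by 0.64 in control and 0.43 in Smad7-KO cells (adjusted p = 0.00122 and 0.012), and Nectin1 by 0.62 and 0.67 (adjusted p = 0.0265 and 0.0153). Nectin3 rose by 0.45 and 0.71 (adjusted p = 0.0183 and 0.00091). Nectin2 was called lower in control cells (-0.53, adjusted p = 0.0471) and stood at -0.18 in Smad7-KO cells (adjusted p = 0.626), and Plekha7 was called lower in Smad7-KO cells (-0.84, adjusted p = 0.0194) and stood at -0.51 in control cells (adjusted p = 0.17). In Smad7-KO against control, 3 rose and 3 fell in unstimulated cells and 3 fell in stimulated cells. Nectin3 was lower in both (-0.63 and -0.37, adjusted p = 0.0024 and 0.0381). Afdn, or afadin, and Nectin4 were higher in unstimulated cells (0.70 and 0.58, adjusted p = 0.0378 and 0.0357), and Zyx, or zyxin, was lower in both states (-0.43 and -0.51, adjusted p = 0.0062 and 0.00327), as was Ajuba (-0.29 and -0.49, adjusted p = 0.047 and 0.00684).

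Among 10 genes of cadherin processing and turnover, 2 rose with TGF-β1 in each genotype. Furin, which trims cadherin precursors, rose by 1.07 and 0.89 (adjusted p = 0.00646 and 0.0163), and Adam10, which sheds cadherins, by 0.57 and 0.59 (adjusted p = 0.0317 and 0.0235). In unstimulated Smad7-KO cells 4 of the 10 were higher and in stimulated cells 1. Adam17, a related sheddase, was higher by 0.79 and 0.62 (adjusted p = 0.00177 and 0.00804), and Furin and Cbll1, an E-cadherin ubiquitin ligase, by 0.66 and 0.70 in unstimulated cells (adjusted p = 0.0396 and 0.0203).

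Of 13 genes of the β-catenin destruction complex and its TCF partners, the transcription factor gene Tcf7l2 fell with TGF-β1 in both genotypes (-0.50 and -0.50, adjusted p = 0.00967 and 0.00851). It was also lower in Smad7-KO cells in both states (-0.37 and -0.37, adjusted p = 0.0258 and 0.0359). Tcf7l1 was lower in stimulated Smad7-KO cells (-0.61, adjusted p = 0.0337), and Pygo2, a coactivator, rose with TGF-β1 in Smad7-KO cells by 0.44 (adjusted p = 0.0398). Of 8 tested β-catenin target genes, 2 rose with TGF-β1 in each genotype, both of them Wnt antagonists. Nkd2 rose by 0.94 and 0.79 (adjusted p = 0.000358 and 0.001), and Znrf3 by 0.99 and 1.12 (adjusted p = 0.023 and 0.00915). In Smad7-KO against control 1 rose and 2 fell in unstimulated cells and 3 fell in stimulated cells. Nkd2 was higher in unstimulated cells (0.54, adjusted p = 0.00966), Myc was lower in both (-0.63 and -0.61, adjusted p = 0.0219 and 0.0332), and Apcdd1 was lower in stimulated cells (-0.86, adjusted p = 0.0116).

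All 6 repressors of cadherin genes were tested, and with TGF-β1 1 rose and 1 fell in each genotype. Snai1, or Snail, rose by 0.87 and 1.38 (adjusted p = 0.00491 and 0.000204), and Snai2, or Slug, fell from 11.9 ± 1.08 to 5.02 ± 0.159 CPM (SD) in control cells. Its log2 fold changes with TGF-β1 were -1.25 and -0.93 (adjusted p = 9.47e-05 and 0.000855). In Smad7-KO cells 1 was higher and 3 were lower without TGF-β1, and 2 were lower with it. Snai2 was lower in both states (-1.11 and -0.80, adjusted p = 0.000313 and 0.00342), as was Twist1 (-1.15 and -0.78, adjusted p = 0.00163 and 0.0152). Zeb2 was higher in unstimulated Smad7-KO cells by 0.95 (adjusted p = 0.0196).

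**Figure D5:**
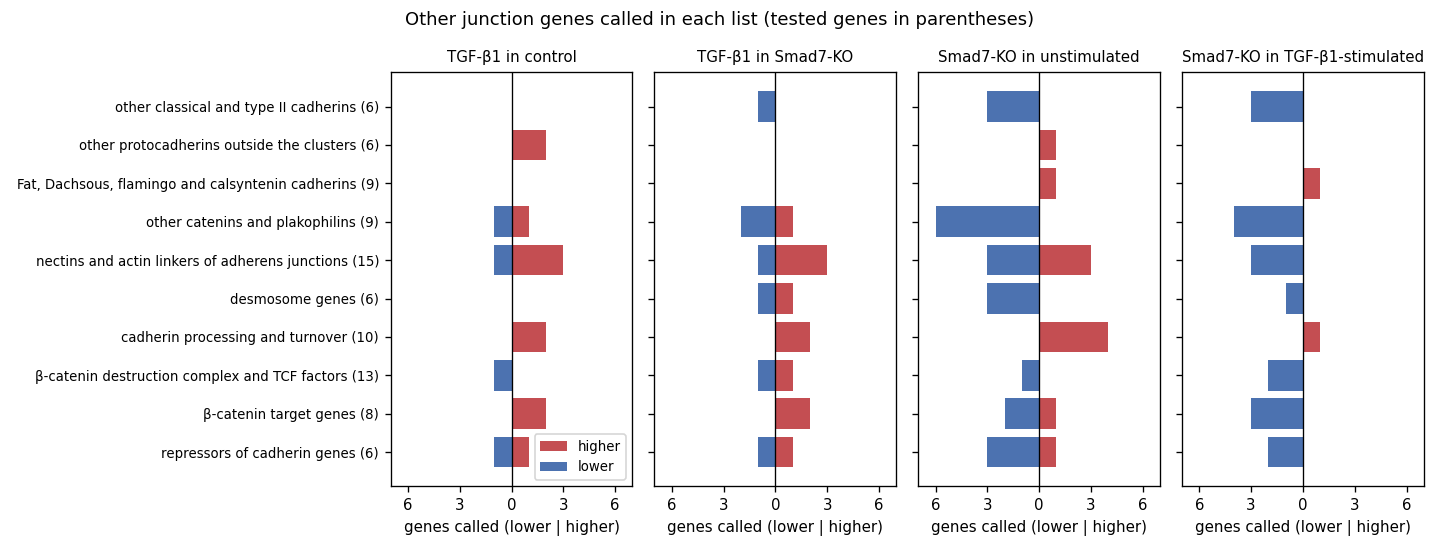
Number of genes called higher (right of 0) and lower (left of 0) in each of the 10 lists (tested genes in parentheses) for the 4 comparisons, by edgeR at an adjusted p of at most 0.05. Other catenins and plakophilins have the longest lower bars, 6 of 9 in unstimulated and 4 of 9 in stimulated Smad7-KO cells.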

How the data were processed

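RNA-Seq of polyA RNA was performed on 12 libraries of cultured cardiac fibroblasts. The files deposited by the authors give each gene's raw read count and an FPKM value that carries no scaling beyond the library total. For all 35275 genes the deposited FPKM equals count per gene length and library total within a relative tolerance of 1e-06. The submitters' processing notes name CASAVA, TopHat2 2.0, Cufflinks 2.1.1, HTSeq 0.6.1, mm10 and GRCm38.p6, and whether reads were counted by strand is not given in the sources used here. Gene lengths were used as deposited.

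The counts were fitted in R 4.3.3 by edgeR 4.0.16. filterByExpr (minimum count 10) left 15150 genes, libraries were scaled by TMM, and a robust quasi-likelihood model with 1 mean per condition was fitted to all 12 libraries. Adjusted p values are Benjamini-Hochberg values over all genes tested, and genes at 0.05 or less were called. The 2 TGF-β1 comparisons, the 2 Smad7-KO comparisons and their interaction were made. Replicates are the 3 samples per condition that the design text calls independent, and if they do not come from separate cultures the p values measure only the spread between these samples. Replicates differed by more than counting noise (chi-square per gene of 3.09 to 241 in the 12 pairs). The replicate numbers were not taken as pairs, and 1 of 18 same-numbered pairs had a correlation of deviations over 0.1 (-0.357 to 0.524). With 3 libraries per condition such correlations cannot exclude pairing. The highest, 0.524, was for control library 2 without and with TGF-β1.

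Alternatives were DESeq2 1.42.0 on all libraries, edgeR with the size factors of DESeq2, edgeR without the low-count filter, edgeR on the libraries of the comparison alone, the replicate number as a block, removal of each library's loess trend on gene length (span 0.3), limma 3.58.1 on log2(FPKM + 1) and log2(FPKM + 0.1) over genes that reached 1 FPKM in 3 or more libraries, limma without that filter, and leaving out each library. FPKM levels by gene are from TMM-scaled libraries, and the share of Jup was also computed from counts not divided by length. The procedures were run on simulated data with the same spread in every condition. In the real libraries the coefficient of variation from edgeR ran from 0.0528 in unstimulated Smad7-KO to 0.332 in unstimulated control cells. The simulation therefore says nothing of how the fit handles unequal spread. The 8 genes, the 10 gene lists and the marker lists were chosen with earlier results of these data known. Named were the 8 genes, Smad7, for each list and comparison up to 3 called genes with the largest change among those whose libraries did not overlap and whose average log2 CPM was 1 or more, and for each of the 8 genes the 3 with the highest Pearson's r. Clustered protocadherins were left out because they share exons. Columns of per-sample values without a sample numbered 0.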

Additional observations from a re-analysis of the deposited data

How the results depend on the processing

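With 3 libraries per condition, small differences were at the limit of the tests, and the depth limits Pcdh17, which had 4 and 9 counts in the Smad7-KO conditions. In the fit with the replicate number as a block, Jup with TGF-β1 in Smad7-KO cells was no longer called (adjusted p = 0.0722) so that 1 of the 8 genes was called there, the interaction had 0 called genes, and the blocked counts over all genes were 1107, 1323, 3222 and 1625 for TGF-β1 in control, TGF-β1 in Smad7-KO, unstimulated Smad7-KO and stimulated Smad7-KO cells, where the unblocked counts were 1268, 1550, 3907 and 1962. The log2 fold change of Jup there was 0.38 with and without the block, and why the call was lost was not tested. The block changed no other call of the 8 genes with TGF-β1 or in the interaction. For TGF-β1 in control cells, leaving out 1 library gave 825 to 3449 called genes and 1 to 3 of the 8. The fit to the comparison's libraries alone gave 391 and 0, and the removal of the length trend 2204 and 3, with 49.2% of called genes higher against 60.2%, and DESeq2 called 2 of the 8. For TGF-β1 in Smad7-KO cells, leaving out 1 library gave 985 to 2535 genes and 1 to 3 of the 8, the fit to the comparison's libraries alone gave 3792 genes, and the removal of the length trend gave 2468. No low-count filter and the 3 limma fits each left 1 of the 8. For Smad7-KO in unstimulated cells, leaving out 1 library gave 1535 to 7979 genes and the fit to the comparison's libraries alone 660. For Smad7-KO in stimulated cells the numbers were 883 to 4465, 4453, and 3514 with the length trend removed. There the share of called genes that were higher was 44.1%, 55.7% with the length trend removed, and 33.2%, 31.6% and 31.4% in the limma fits. The interaction had 3 called genes, 0 to 6 with 1 library left out, 14 in DESeq2, 8 with the length trend removed, 0 in limma with either pseudocount and 1 without its filter, and called 0 of the 8 in every alternative. Among the uncalled TGF-β1 and interaction values of the 8 genes, 34 of 426 turned in direction, the smallest adjusted p being 0.611. With the length trend removed, these were Cdh13 (-0.077) and Ctnna1 (-0.045) with TGF-β1 in control cells and Cdh13 (0.012) in the interaction. In the interaction, limma on log2(FPKM + 1), with and without the filter, turned Cdh11 (-0.044), Ctnna1 (-0.034), Ctnnb1 (-0.038) and Jup (-0.0088), and without the filter also Pcdh17 (-0.047), and a pseudocount of 0.1 turned Cdh11 (-0.041), Ctnna1 (-0.034), Ctnnb1 (-0.039) and Jup (-0.0047). With 1 library left out, the values with TGF-β1 in control cells ran from -0.10 to 0.12 for Cdh13, -0.17 to 0.58 for Pcdh17, -0.032 to 0.10 for Ctnna1 and -0.62 to 0.028 for Ctnnd1, and in Smad7-KO cells from -0.20 to 0.0057 for Cdh13. In the interaction they ran from -0.23 to 0.023 for Cdh13, -0.20 to 0.45 for Ctnnd1, -0.072 to 0.23 for Cdh2, -0.13 to 0.16 for Cdh11, -0.032 to 0.12 for Ctnna1, -0.076 to 0.16 for Ctnnb1, -0.0087 to 0.13 for Jup and -0.0051 to 4.41 for Pcdh17. The turns came without unstimulated control library 2 or 3, TGF-β1 control library 1 or 2, unstimulated Smad7-KO library 1 or TGF-β1 Smad7-KO library 1. The cause of these moves was not tested.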
